A study of Mus musculus with 2 samples.

Results

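The actin cytoskeleton and cell motility gene set held 48 genes, named one by one for their known roles, and it was followed in 2 single-cell RNA libraries of mouse splenic regulatory T cells (Tregs). The count tables listed 28692 genes. A gene counted as measured with 30 or more unique molecular identifiers (UMIs, each a tag on 1 captured RNA molecule) over both libraries, which 47 of the 48 members and 9224 genes in all reached. The member left out was Vcl, which encodes the adhesion protein vinculin and had 3 UMIs in each library. The 47 measured members were placed in 9 role groups, and the libraries were compared within cells of similar ribosomal protein content.

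Both libraries came from male B6 mice of 8 weeks that carried a Pparg-Tdt and a Foxp3-Gfp reporter, so both groups shared the 2 alleles. CD4 Tregs of the spleen, pooled from 2 or 3 mice, were sorted and captured with Chromium 3′ v2 chemistry. One library was labelled PPARg-low and the other PPARg-negative, after the nuclear receptor encoded by Pparg, and neither group was treated. The deposited matrix of the PPARg-low library carries the tag pos, a conflict with its label that could not be settled, and the label's word is used here. With 1 library per group and no mouse told apart, the groups could not be tested against each other, and the intervals below cover counting error only.

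Actin exists as free monomers and as filaments, and T cells crawl, form contacts and signal by building filaments at one place and dissolving them at another. Thymosins and profilin hold or deliver monomers, the Arp2/3 complex starts branches, formins and Ena/VASP proteins lengthen filaments, cappers stop them, and cofilin with its partners takes them apart. Small GTPases steer these steps, myosin II pulls on the filaments, and ezrin, moesin and talin tie them to the membrane and to integrins. Transcription of the actin genes themselves is known to respond to the monomer pool through serum response factor, which binds a DNA motif called the CArG box.

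The promoters of Actg1 and Arpc4, which held a CArG box, are shown beside that of Evl, the member lowest between the libraries. RefSeq windows on GRCm38.p6, 300 bases long with 250 before and 50 after a gene's start, matched 43 of the 48 members. Actb, Cotl1, Coro1b, Rac1 and Rac2 had no entry. On both strands, the CArG box was found in windows of 4 of the 43 matched members (Actg1, Arpc4, Myl6 and Vcl), or 9.30%, and in windows of 1.81% of 27025 genes. Among measured genes it was found in 3 of 42 matched members (7.14%) and in 109 of 7072 genes (1.54%). The GC-rich motif GGGCGG was found in 34 of 43 members (79.1%) and 38.2% of all genes, but in 78.6% of measured members and 71.0% of measured genes. TATAAA was found in 11.6% of members and 15.7% of all genes, but in 11.9% of measured members and 7.64% of measured genes. These matches are letters in a window and show no binding. The first pair below has the CArG box in capitals. Evl, the lowest member between the libraries, has GGGCGG in capitals, read on the other strand as CCGCCC. The Actg1 stretch holds GGGCGG too, left in lower case, and a second Evl window (chr12:108605516-108605765), not printed, holds none. None of the 3 printed stretches holds TATAAA, so no motif overlaps with it there. Each is given 5′ to 3′ on the gene's strand, without bases that lie in an exon of the gene in GENCODE M21.
Actg1, chr11:120348543-120348745, minus strand, the 203 bases before the first exon: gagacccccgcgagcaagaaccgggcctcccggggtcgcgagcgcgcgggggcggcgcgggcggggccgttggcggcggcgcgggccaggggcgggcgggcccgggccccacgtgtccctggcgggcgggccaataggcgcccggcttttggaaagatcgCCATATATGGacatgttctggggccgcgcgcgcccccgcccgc
Arpc4, chr6:113377863-113378112, plus strand, 250 bases before the RefSeq start: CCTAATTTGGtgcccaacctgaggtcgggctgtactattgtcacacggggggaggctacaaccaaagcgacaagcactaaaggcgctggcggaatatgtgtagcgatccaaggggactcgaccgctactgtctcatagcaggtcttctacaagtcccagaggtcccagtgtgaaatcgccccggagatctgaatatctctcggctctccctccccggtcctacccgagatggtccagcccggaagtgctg
Evl, chr12:108554470-108554719, plus strand, 250 bases before the RefSeq start: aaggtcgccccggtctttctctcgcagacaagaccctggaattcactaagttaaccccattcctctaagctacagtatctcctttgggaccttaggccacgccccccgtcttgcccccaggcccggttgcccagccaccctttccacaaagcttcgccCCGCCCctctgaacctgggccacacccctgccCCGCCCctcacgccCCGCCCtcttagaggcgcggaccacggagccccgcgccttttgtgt
The Actg1 match began at base 161 of its stretch, close to the first exon, and the Arpc4 match at base 1, the far end of its window.

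The libraries differed in depth and in ribosomal content. Among cells with at most 10% of UMIs from mitochondrial genes, 1619 of the PPARg-low library held 2901710 UMIs and 2633 of the PPARg-negative library held 5897260. The median cell had 14.3% ribosomal protein UMIs in the PPARg-low and 35.2% in the PPARg-negative library. Cells with 20% or more are called ribosome-rich (668 and 2019 cells) and the others ribosome-poor (951 and 614 cells). The ribosome-poor cells were shallower, with a median of 978 and 853 UMIs against 2294 and 2455, and their median mitochondrial share was 6.80 and 6.92% against 2.74 and 2.29%. None of the 8 Treg markers was at 0, although Foxp3 had only 100 and 146 UMIs. The 4 platelet markers, of a cell fragment rich in actin and thymosin, were at 0 in both libraries. The natural killer (NK) cell markers Ncr1 and Klrk1 and the gamma delta T cell marker Sox13 were at 0 too. However, the NK cell marker Klrb1c had 11 and 7 UMIs, and the gamma delta T cell marker Trdc had 38 and 78. Summed erythroid markers stood at 12.1 and 1.70 counts per 1000000 UMIs, myeloid markers at 10.7 and 3.56, and B cell markers at 33.4 and 27.8. Summed CD8 T cell markers stood at 31.0 and 27.6. Their part in the values below was not tested.

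The 48 genes together took 4.64% of all UMIs in the PPARg-low and 5.29% in the PPARg-negative library. Actb, Actg1, Tmsb4x, Tmsb10 and Pfn1 alone held 55.6 and 64.1% of the members' UMIs. In the median ribosome-rich cell the members' summed share was 4.53% in the PPARg-low and 5.35% in the PPARg-negative library, and in the median ribosome-poor cell it was 3.08 and 3.25%. Summed over cells instead, the shares were 5.11 and 5.39% in ribosome-rich cells and 3.93 and 4.47% in ribosome-poor ones, so the PPARg-low library was lower in both kinds of cells and the size of the gap depended on whether cells were summed or their median was taken. By bins of 5 percentage points of ribosomal share, the PPARg-low median was lower in each of the 4 bins from 20 to 40%, for example 4.66% (271 cells) against 6.49% (189 cells) between 25 and 30%. It was almost equal between 10 and 15%, at 3.22 against 3.19%, and clearly higher only between 15 and 20%, at 4.60% (116 cells) against 3.66% (132 cells), the bin in which the median depth also differed most, at 1858 and 957 UMIs. Whether depth bears on that bin was not tested.

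**Figure D1:**
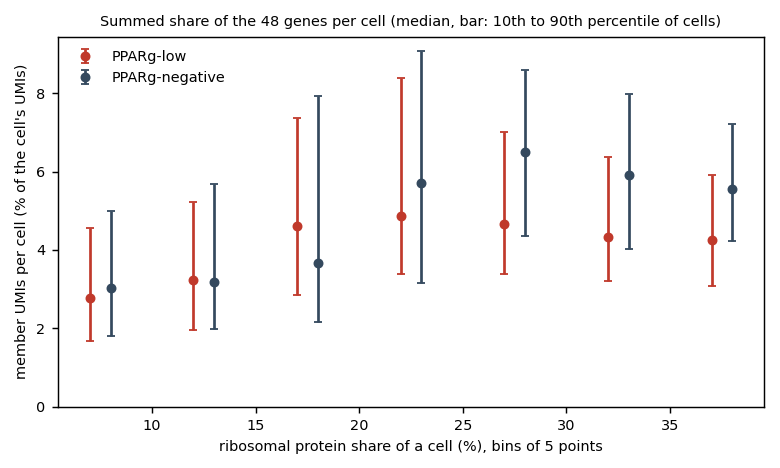
Share of a cell's UMIs that came from the 48 genes (vertical axis, %) by the cell's ribosomal protein share (horizontal axis, %, bins of 5 points with 50 or more cells in each library). Points are medians over cells and bars run from the 10th to the 90th percentile of cells; the PPARg-low medians lie below the PPARg-negative ones in all 4 bins from 20 to 40%, and the bars overlap in every bin.

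Between the libraries, levels are given as counts per 1000000 UMIs (CPM), and a ratio is PPARg-low over PPARg-negative, with a 95% interval. A gene is called higher or lower where the ratio reaches 1.5 either way and the interval leaves 1 out. Over all cells 4 of 47 members were higher (Capg, Ahnak, Lcp1 and Coro1b), against a background of 24.2% of the measured genes, and 2 were lower (Evl and Tmsb10), against 4.47%. The intervals of 26 members lay above 1, against 38.7% of genes, and those of 9 below 1, against 7.99%. The members' median ratio was 1.13, under the median of 1.22 over all measured genes. Because that median moves with the scaling, to 1.04 without ribosomal protein, mitochondrial and Malat1 UMIs, the split of the members moved too. Intervals above and below 1 then numbered 13 and 22, and relative to the median gene 9 and 22. The 9 members above 1 in all 3 scalings were Actg1, Arpc1b, Coro1b, Gmfg, Capzb, Capg, Lcp1, Tagln2 and Ahnak. Below 1 in all 3 were Actb, Tmsb4x, Tmsb10, Pfn1, Cfl1, Coro1a, Evl, Rhoa and Arhgdib.

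Compared within bins of equal ribosomal share and combined over the bins (the stratified ratio, a Mantel-Haenszel rate ratio), most differences were small and more of them pointed down. None of the 47 members was called higher, where 7.20% of the measured genes were, and only Evl was called lower, where 6.13% were. The interval lay above 1 for 6 members, or 12.8% (background 13.2%), and below 1 for 20 members, or 42.6% (background 11.9%). Those 26 members were on the same side in all 3 scalings. The median stratified ratio was 0.944 over members and 1.01 over all measured genes, and members ran from 0.582 to 1.46. Members with many UMIs have narrow intervals, which a small difference can move off 1.

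**Figure D2:**
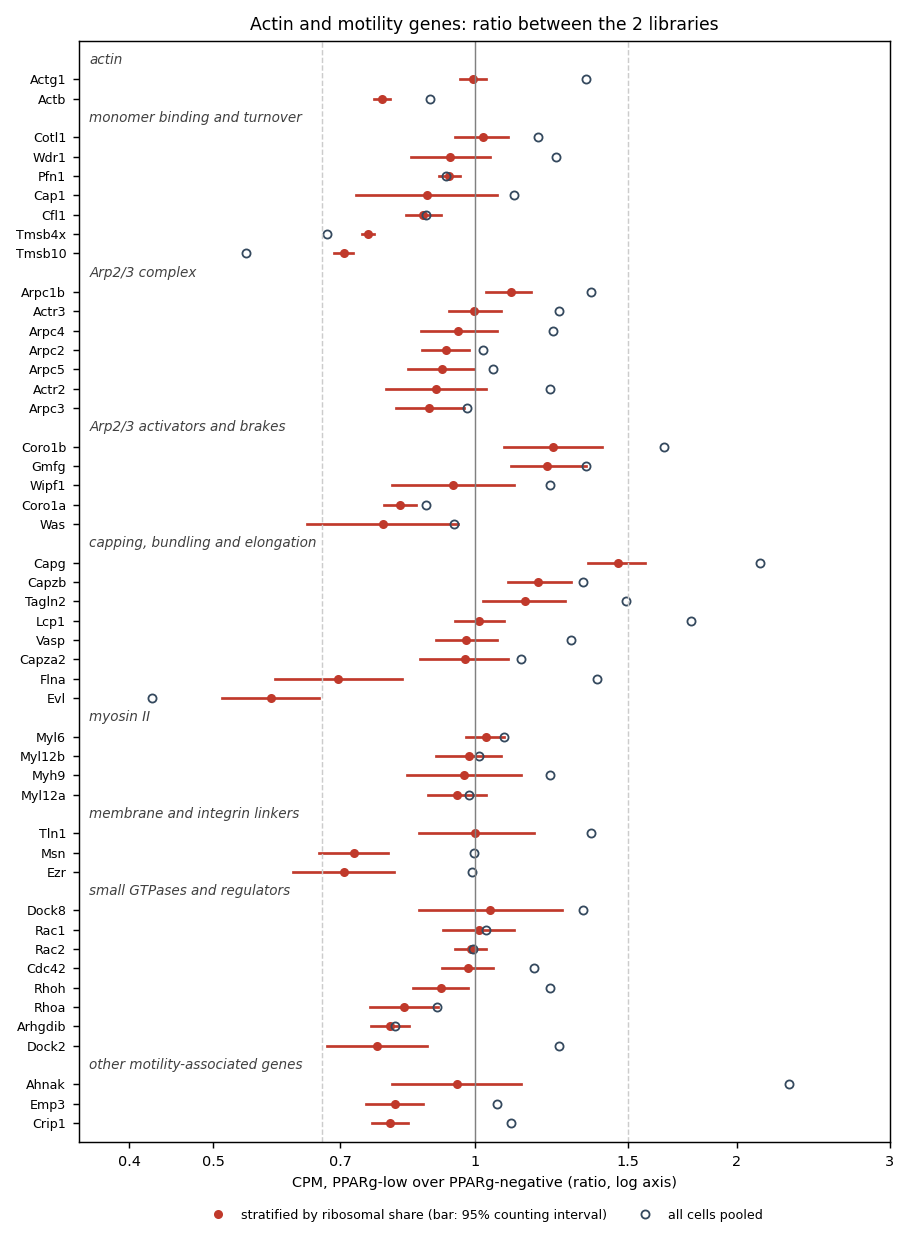
Ratio of CPM, PPARg-low over PPARg-negative (horizontal log axis), for the 47 measured members by role group. Filled points are stratified ratios with 95% counting intervals, open points the ratio over all cells pooled, and dashed lines mark 1.5 times either way; only Evl has a stratified ratio past a dashed line, and Ahnak and Lcp1 move from 2.30 and 1.77 to near 1.

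The 2 non-muscle actins differed from each other. Actb (chr5:142903115-142906754), which encodes beta-actin, had 17286 UMIs in the PPARg-low and 39578 in the PPARg-negative library, or 5957 and 6711 CPM, and a stratified ratio of 0.782 (0.765 to 0.799). Actg1 (chr11:120345690-120348542), which encodes gamma-actin, had 8464 and 12854 UMIs, or 2917 and 2180 CPM, and a stratified ratio of 0.994 (0.962 to 1.03). Pooled over all cells, Actb was thus lower and Actg1 higher in the PPARg-low library, at ratios of 0.888 and 1.34, and within equal ribosomal share the Actg1 difference was no longer seen. In ribosome-poor cells both actins were below 1, at 0.803 (0.773 to 0.835) and 0.888 (0.843 to 0.935). Of 50-base windows in the last 300 bases of the Actb transcripts, which 3′ reads cover, only 1.36% occurred in Actg1. Over the whole Actb transcripts the share was 1.38%.

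Among monomer-binding and turnover proteins, both thymosins were lower in the PPARg-low library and no member of the group had a stratified interval above 1. Tmsb4x (thymosin beta 4, which sequesters monomers) had 26660 and 80112 UMIs, or 9188 and 13585 CPM, and a stratified ratio of 0.753 (0.741 to 0.766). Tmsb10, its close relative, had 11903 and 44359 UMIs, or 4102 and 7522 CPM, and a stratified ratio of 0.706 (0.689 to 0.723). The last 300 bases of their transcripts shared no 50-base window. Pfn1 (profilin, which feeds monomers to growing ends) and Cfl1 (cofilin, which severs filaments) stood closer to 1, at 0.934 (0.908 to 0.960) and 0.872 (0.832 to 0.914). Cotl1, which encodes a coactosin-like filament binder, had 1908 and 3289 UMIs, or 658 and 558 CPM, and a stratified ratio of 1.02 (0.949 to 1.09). The intervals of Wdr1, a cofilin cofactor, and Cap1, which recycles monomers, also spanned 1.

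The 7 measured subunits of the Arp2/3 complex stayed within a narrow band, from 0.886 to 1.10 in stratified ratio. Arpc1b stood highest with 2535 and 3799 UMIs, or 874 and 644 CPM, at 1.10 (1.03 to 1.16). Arpc3 stood lowest with 1034 and 2149 UMIs, or 356 and 364 CPM, at 0.886 (0.810 to 0.970). One subunit (Arpc1b) had an interval above 1 and 3 (Arpc2, Arpc3 and Arpc5) below it, while Arpc4, Actr2 and Actr3 spanned 1. Pooled over all cells, 4 of the 7 were above 1 and none below when scaled to all UMIs. In the other 2 scalings only Arpc1b was above 1 in both, and Arpc2, Arpc3 and Arpc5 were below.

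The regulators of that complex split. Gmfg, which encodes a factor that takes branches apart, had 963 and 1461 UMIs, or 332 and 248 CPM, with a stratified ratio of 1.21 (1.10 to 1.34), and Coro1b, a coronin that acts on branches, was at 1.23 (1.08 to 1.40). Coro1a, the main coronin of leukocytes, had 4473 and 10353 UMIs, or 1542 and 1756 CPM, and was lower at 0.820 (0.786 to 0.856). The activator Was, the gene of Wiskott-Aldrich syndrome, was at 0.783 (0.641 to 0.956) on only 199 and 428 UMIs, and its partner Wipf1 spanned 1. The coronins thus lay on opposite sides of 1, and their intervals do not overlap.

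Cappers, bundlers and elongation factors held both ends of the whole set. Capg (chr6:72544391-72562983), which caps the fast-growing ends of filaments, had 1965 UMIs in the PPARg-low and 1874 in the much deeper PPARg-negative library, or 677 and 318 CPM. Its pooled ratio was 2.13 (2.0 to 2.27) and its stratified ratio 1.46 (1.35 to 1.57), just under the size that counts as called. Evl (chr12:108554720-108688516), an Ena/VASP protein that lengthens filaments, had 376 and 1798 UMIs, or 130 and 305 CPM, with a pooled ratio of 0.425 (0.379 to 0.475) and a stratified one of 0.582 (0.512 to 0.661). Evl was therefore the member with the lowest ratio in the pooled, ribosome-rich, ribosome-poor and stratified comparisons. Its relative Vasp, of the same protein family, had a stratified ratio of 0.977 (0.901 to 1.06), and the intervals of the pair do not overlap. The capping subunit Capzb was at 1.18 (1.09 to 1.29) and the filament binder Tagln2 at 1.14 (1.02 to 1.27), whereas the partner subunit Capza2 spanned 1. The crosslinker Flna (filamin A) was at 0.696 (0.589 to 0.823) although its pooled ratio was 1.38 (1.19 to 1.60), so its direction depended on whether ribosomal share was matched. Relative to the median gene, that pooled ratio was 1.13 and its interval spanned 1. Lcp1, which encodes the leukocyte bundling protein L-plastin, went from 1.77 (1.67 to 1.87) pooled to 1.01 (0.948 to 1.08).

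None of the 4 myosin II genes had a stratified interval apart from 1. Myl6, an essential light chain, had 3244 and 6117 UMIs, or 1118 and 1037 CPM, at 1.03 (0.975 to 1.08). The regulatory light chain Myl12a had 1457 and 3008 UMIs, or 502 and 510 CPM, at 0.953 (0.883 to 1.03). Of its end windows, 38.1% also occurred in Myl12b, so the counts of this pair are uncertain. The heavy chain gene Myh9 was at 0.970 (0.834 to 1.13).

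Of the linkers to membrane and integrins, the ERM proteins were lower and talin was not. Msn (moesin) had 967 and 1969 UMIs, or 333 and 334 CPM, and a stratified ratio of 0.726 (0.662 to 0.795). Its pooled levels were equal only when scaled to all UMIs, and the pooled ratio was 0.849 and 0.819 in the other 2 scalings. Ezr (ezrin) gave nearly the same at 0.706 (0.617 to 0.807), with a pooled ratio of 0.991 (0.883 to 1.11) that was 0.843 and 0.812 in the other 2 scalings. Tln1, which couples integrins to actin, had 394 and 587 UMIs, or 136 and 99.5 CPM, and a stratified ratio of 1.0 (0.861 to 1.17).

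The small GTPases and their regulators split by member as well. Rac2, the Rac of blood cells, had 4561 and 9317 UMIs, or 1572 and 1580 CPM, and a stratified ratio of 0.989 (0.947 to 1.03), and Rac1 and Cdc42 spanned 1 too. Arhgdib, whose product holds small GTPases inactive in the cytosol, had 3129 and 7870 UMIs, or 1078 and 1335 CPM, and was lower at 0.798 (0.759 to 0.840). Rhoa was at 0.829 (0.757 to 0.907), and Rhoh, a GTPase of blood cells, at 0.913 (0.849 to 0.981). Of the exchange factors for Rac and Cdc42, Dock2 was lower at 0.772 (0.676 to 0.881) and Dock8 spanned 1, with 257 and 394 UMIs behind it.

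The other 3 members are linked to motile or effector T cells. Ahnak, which encodes a very large scaffold protein, had 323 and 285 UMIs, or 111 and 48.3 CPM, for a pooled ratio of 2.30 (1.96 to 2.71), the highest of all members, but a stratified ratio of 0.954 (0.803 to 1.13). Crip1, which encodes a small LIM protein, had 3631 and 6732 UMIs, or 1251 and 1142 CPM, and went from 1.10 (1.05 to 1.14) pooled to 0.799 (0.761 to 0.838) stratified. The pooled side turned with the scaling, to 0.933 and 0.899 with intervals below 1 in the other 2 scalings. Emp3, which encodes a membrane protein, was at 0.808 (0.750 to 0.871).

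The ribosome-rich and ribosome-poor cells gave different pictures. In ribosome-rich cells 5 members were higher (Capg, Ahnak, Coro1b, Tagln2 and Gmfg; background 17.5%) and 1, Evl, was lower (background 3.75%). Intervals lay above 1 for 25 members (background 28.7%) and below 1 for 9 (background 6.75%). Scaled without ribosomal protein, mitochondrial and Malat1 UMIs, 13 lay above 1 there, and 11 relative to the median gene. The median ribosomal share of these cells still differed, at 27.9% in the PPARg-low and 37.9% in the PPARg-negative library. In single bins from 20 to 40%, Capg had its interval above 1 throughout. Gmfg had it above 1 between 25 and 30% and between 35 and 40%, and Tagln2 only between 35 and 40%. Ahnak and Coro1b had it above 1 in none, and Ahnak was at 0.520 (0.293 to 0.920) between 20 and 25%. In ribosome-poor cells 0 members were higher (background 5.68%) and 2, Evl and Crip1, were lower (background 4.89%), with intervals above 1 for 2 members (background 7.72%) and below 1 for 17 (background 7.74%). Median ratios were 1.15 for the first kind of cell and 0.933 for the second, beside 1.17 and 1.01 over all genes. All 17 members below 1 in ribosome-poor cells were also below 1 in the other 2 scalings, where further members joined them. Capg alone was above 1 in both kinds of cells under all 3 scalings, at 2.35 (2.18 to 2.54) and 1.23 (1.08 to 1.40).

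**Figure D3:**
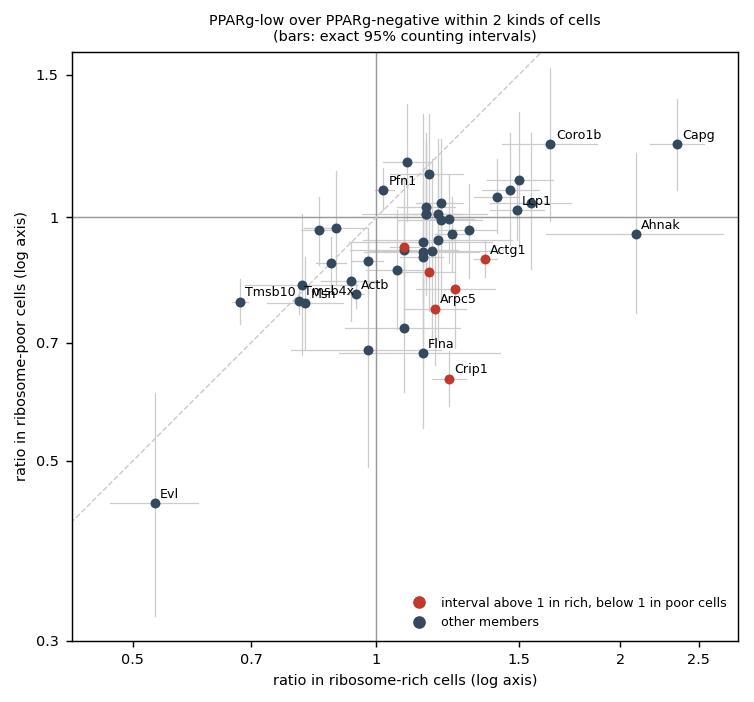
Ratio of PPARg-low over PPARg-negative in ribosome-rich cells (horizontal log axis) against ribosome-poor cells (vertical log axis) for the 47 measured members, with exact 95% counting intervals and the line of equal ratios dashed. Red points mark the 6 members whose interval lay above 1 in ribosome-rich and below 1 in ribosome-poor cells, among them Actg1 and Crip1, and Evl lies lowest on both axes.

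Bin by bin, the members with the steadiest differences were few. Over the 7 bins from 5 to 40% with 50 or more cells in each library, Capg was above 1 in all 7 with its interval above 1 each time, from 1.23 to 1.83, and Capzb was above 1 in all 7 from 1.05 to 1.36, with its interval above 1 in 1 bin. These 2 of 47 stand beside 5.01% of the measured genes above 1 in every bin. The 8 members below 1 in all 7 bins (background 3.90%) were Tmsb4x, Tmsb10, Coro1a, Flna, Evl, Msn, Ezr and Dock2. Flna, Ezr and Dock2 had intervals below 1 in only 2 bins each, the other 5 in 5 or 6. Evl ran from 0.332 to 0.818, with the interval below 1 in 5 bins. Crip1 was not steady, with 921 against 691 CPM between 5 and 10%, 1589 against 2955 between 15 and 20%, and 1434 against 1469 between 25 and 30%. Its stratified ratio without the bin from 15 to 20% was 0.850.

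**Figure D4:**
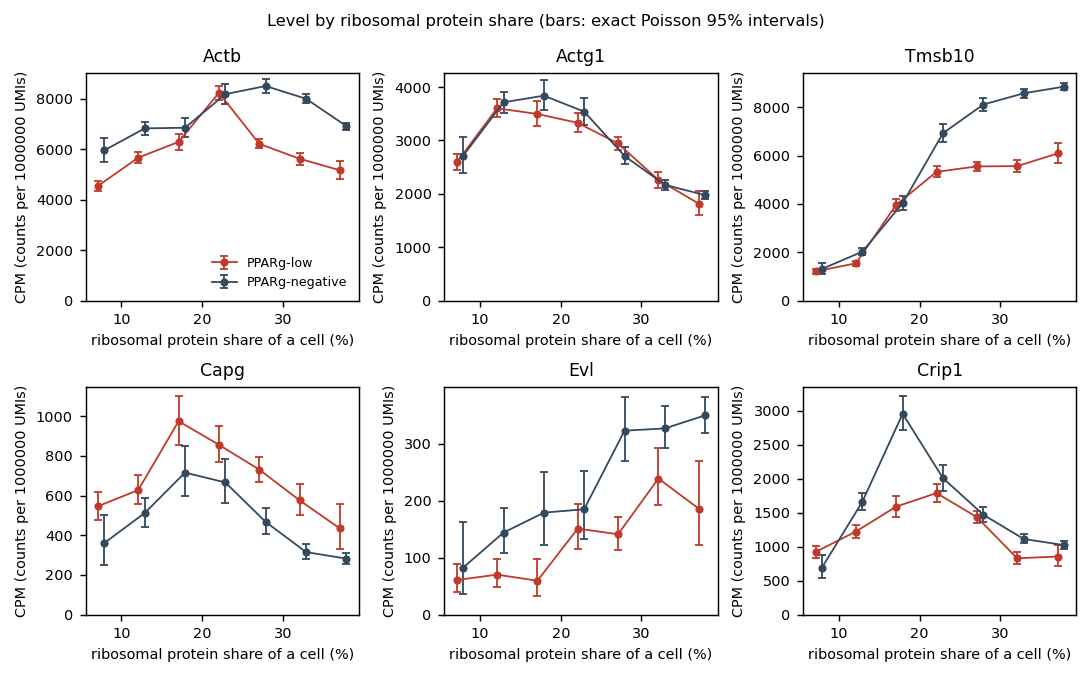
CPM (vertical axes, from 0) of 6 members in bins of the cell's ribosomal protein share (horizontal axes, %), with exact Poisson 95% intervals. Capg is higher in the PPARg-low library in every bin, Evl and Tmsb10 are lower in every bin with intervals that overlap in some, and Actg1 of both libraries runs together.

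Within each library the members also varied with ribosomal content. In the PPARg-low library 10 members were called higher in ribosome-poor than in ribosome-rich cells (background 24.5%) and 6 lower (background 6.91%), and in the PPARg-negative library 21 (background 35.7%) and 5 (background 5.85%). Scaled without ribosomal protein, mitochondrial and Malat1 UMIs, these numbers were 7 and 12 in the first (background 16.1 and 11.5%) and 7 and 10 in the second (background 22.0 and 12.8%). The members' median ratio went from 1.0 to 0.867 and from 1.26 to 0.979. Tmsb10 had the lowest ratio, 0.353 (PPARg-low) and 0.304 (PPARg-negative) of its ribosome-rich level, and Tmsb4x and Evl were also low, at 0.488 and 0.496, and 0.371 and 0.446. Highest were Ahnak at 2.93 and 6.42, Flna at 2.81 and 4.71 and Lcp1 at 2.19 and 3.20. Crip1, at 0.920 and 1.79, and Capg, at 0.988 and 1.89, differed between the libraries, which was not tested.

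Members with long transcripts were relatively higher in ribosome-poor cells, a relation looked for after these values were seen. With the longest coding transcript of each gene in GENCODE M21, the 16 members over 3000 bases had median ratios of 1.60 and 1.88 (PPARg-low and PPARg-negative), the 21 between 1500 and 3000 bases 0.990 and 1.14, and the 10 under 1500 bases 0.763 and 0.952. Across the 47 members, Spearman's rank correlation between length and the ratio was 0.64 and 0.56 (Pearson's r on log2 values 0.68 and 0.64). Over all measured genes with a length it was 0.40 (8924 genes) and 0.36 (8923 genes). Genes of 1 library share its cells and depth and are not independent, so these are descriptions. The stratified ratio between the libraries had no such relation among members, with a rank correlation of 0.00 and r of 0.01. Over the 8927 measured genes with a length, these were -0.14 and -0.11. The relation within each library had exceptions, among them Emp3, short at 784 bases but at 1.61 and 1.80, and Rac1, long at 4159 bases but at 0.687 and 0.781. Of the 16 longest members 13 (PPARg-low) and 14 (PPARg-negative) were over 1, and of the 10 shortest 1 and 3.

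**Figure D5:**
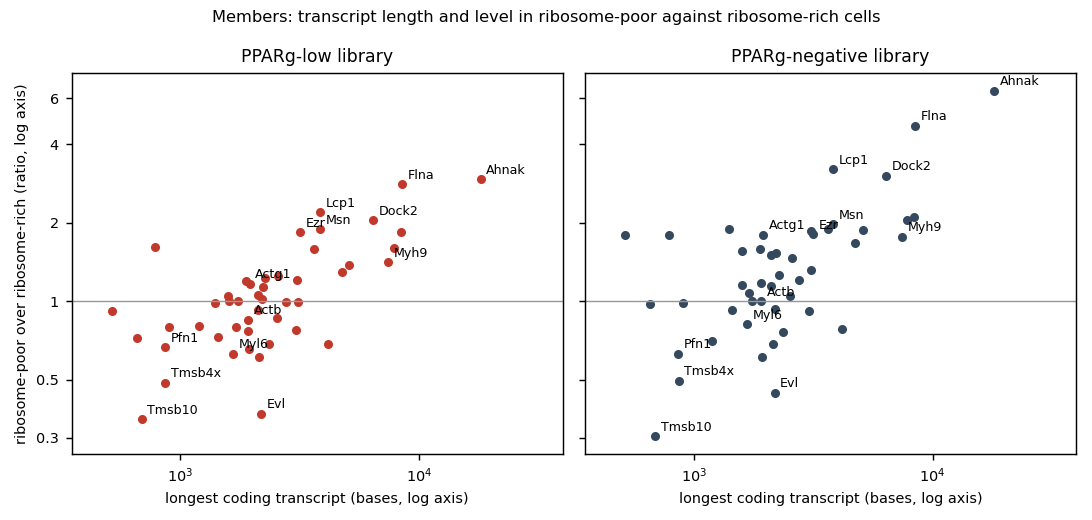
Level in ribosome-poor over ribosome-rich cells (vertical log axis) against the longest coding transcript (horizontal log axis, bases) for the 47 measured members, in the PPARg-low (left) and the PPARg-negative library (right). Short Tmsb10 and Tmsb4x lie lowest with Evl, and long Flna and Ahnak lie highest in both panels.

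A summed level can differ because more cells hold a gene or because cells hold more of it. The share of cells with a UMI was compared with every cell thinned to 750 UMIs. That share also rises when each cell holds more of a gene, so it cannot tell these apart. That left out 238 PPARg-low and 239 PPARg-negative cells as too shallow and used 1381 and 2394. Exact binomial intervals stood apart with the PPARg-low share above for 12 members (background 13.3%) and below for 9 (background 3.91%). Capg was seen in 36.4% (unthinned 55.6%) of PPARg-low and 20.3% (unthinned 40.9%) of PPARg-negative cells. Evl was seen in 7.68% and 20.2% of cells (unthinned 16.6 and 42.8%), Ahnak in 8.69 and 3.97% (unthinned 16.6 and 9.19%), and Tmsb10 in 78.5 and 94.5% (unthinned 83.5 and 94.8%). Cd79a, a B cell gene that Tregs should lack, gave 0.217 and 0.0418% at the same depth, so these members were seen far above the level of Cd79a. Another B cell marker, Cd79b, had more UMIs, 92 and 132 against 4 and 29 for Cd79a, and its share of cells is not given here. In ribosome-poor cells alone 0 members stood apart with the PPARg-low share above (background 1.60%) and 2 with it below (background 1.58%), namely Evl and Rhoh, at 3.47 and 10.1% (Evl) and 36.6 and 47.8% (Rhoh). There Capg was at 36.2 and 31.2%, Ahnak at 12.3 and 12.6% and Tmsb10 at 64.5 and 72.0%, with overlapping intervals. In ribosome-rich cells, whose median ribosomal share still differed, intervals stood apart for Capg (36.5 and 18.0%) and Ahnak (4.70 and 2.17%). They also did for Tmsb10 (93.8 and 99.2%) and Evl (12.3 and 22.3%).

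The deposited counts also allowed a split by Klrg1, a surface receptor of effector Tregs, within each library and kind of cell at 750 UMIs per cell. Evl was called lower with Klrg1 in 3 of the 4 kinds of cells at that depth. In PPARg-low ribosome-rich cells it had 13 UMIs in 187 cells with and 80 in 473 cells without a Klrg1 UMI, a ratio of 0.411 (0.210 to 0.744). In PPARg-low ribosome-poor cells it had 4 UMIs in 380 and 26 in 341 cells, and in PPARg-negative ribosome-poor cells 0 in 58 and 45 in 356 cells. In these 3 kinds of cells the median ribosomal share was slightly lower with Klrg1. It was 26.3 against 28.6%, 10.3 against 11.0% and 12.2 against 12.8%, in the same order. Evl was also lower in ribosome-poor than in ribosome-rich cells of each library, and the part of ribosomal share in this split was not tested. Only 16 PPARg-negative ribosome-rich cells had a Klrg1 UMI, and there 4 members were called higher (background 2.81%) and 0 lower (background 0.666%), on too few cells to describe further. At 1000 UMIs per cell the Evl ratio was 0.378 (0.211 to 0.639) in PPARg-low ribosome-rich cells, but the calls in ribosome-poor cells were lost, where Evl had 8 and 17 UMIs (PPARg-low) and 3 and 25 (PPARg-negative), under the minimum of 30. At that depth Capza2 was called lower in both kinds of PPARg-low cells, at 0.630 and 0.629.

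Few other members were called in that split. In PPARg-low cells Capzb was higher with Klrg1 in ribosome-rich cells at 1.57, so that 1 member was higher (background 3.11%) and 1 lower (background 2.24%). In PPARg-low ribosome-poor cells Flna was higher at 1.73 (background 1.70%) and Evl and Myh9 were lower (background 2.07%). In PPARg-negative ribosome-poor cells 6 members were higher (background 4.18%), namely Actg1, Coro1b, Myl6, Cdc42, Ahnak and Crip1, from 1.52 to 2.63, and 1 was lower (background 2.63%). The call of Capzb and that of Flna were not made at 1000 UMIs per cell, and 1 member in place of 6 was higher in PPARg-negative ribosome-poor cells, so these calls depended on the depth to which cells were thinned.

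A second list, of 50 other genes of the actin pathway that are no members, was compared in the same way. Of the 49 found in the files, all measured, 2 (4.08%, background 7.20%) were higher and 4 (8.16%, background 6.13%) lower by the stratified ratio. Intervals lay above 1 for 2 (4.08%, background 13.2%) and below 1 for 19 (38.8%, background 11.9%), and the median was 0.887. The higher genes were Dstn, a relative of cofilin, at 1.62 (1.25 to 2.09) and Rock2, a kinase that activates myosin II, at 1.51 (1.02 to 2.25). Lowest was Actn1, which encodes the crosslinker alpha-actinin, with 48 and 464 UMIs, or 16.5 and 78.7 CPM, and a ratio of 0.269 (0.194 to 0.371). Add1 and Add3, adducins that cap filaments under the membrane, were at 0.657 (0.527 to 0.819) and 0.639 (0.495 to 0.826), and the cofilin phosphatase gene Ssh2 at 0.667 (0.549 to 0.810).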

How the data were processed

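For each library the authors deposited a table of raw UMI counts for genes by cells, not normalized as far as recorded. Cell Ranger 2.1.0 and the mm10 build were used, per the submitters' processing notes, and the annotation behind the counts is not given in the sources used here. Cells with at least 200 genes and at most 10% mitochondrial UMIs were kept, which removed 373 (PPARg-low) and 269 (PPARg-negative) barcodes. The libraries shared 5 barcodes. Scrublet (scanpy 1.11.5) marked 11 and 1 of the kept cells, which were not removed, so undetected doublets are possible. Levels are UMIs per 1000000 UMIs summed over cells. Ratios have exact conditional binomial 95% intervals, and the stratified ratio has a Greenland-Robins interval over 5-point bins of ribosomal share (103 ribosomal protein genes). Computation used Python 3.11.15, numpy 2.4.6 and scipy 1.17.1. Interval coverage was tested only on simulated Poisson counts, the counting error that the intervals assume. That simulation held no spread between cells or captures, so it cannot show coverage for real differences between libraries. Thinning drew 750 UMIs per cell at random without replacement.

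The members, gene lists, ribosomal split and comparisons were chosen with earlier results of these data known. Printed in full were the members of each role group whose stratified interval reached farthest up or down by its bound nearest to 1, Actb, Actg1, Tmsb4x and Tmsb10, and any member called in opposite directions in both kinds of cells, of which there were none. From the other pathway genes up to 3 called in each direction were printed, by the same bound, and Add3 was added after its value was seen. Every other member given with values was chosen after its values were seen. The rule that an interval lies wholly on 1 side of 1 was added after seeing the data.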

Additional observations from a re-analysis of the deposited data

Results flagged for a closer look

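For 6 members the counting interval of the ratio lay above 1 in ribosome-rich and below 1 in ribosome-poor cells, beside 0.976% of the measured genes. Further members had ratios on opposite sides of 1 without both intervals leaving 1 out. Members with many UMIs have narrow intervals and so meet this rule at smaller differences than genes near 30 UMIs. The difference between the 2 kinds of cells was not tested. Actg1, gamma-actin, was at 1.36 and 0.888, and Crip1, the LIM protein gene, at 1.23 and 0.632. Wdr1, the cofilin cofactor, was at 1.25 and 0.816, and the Arp2/3 subunit gene Arpc5 at 1.18 and 0.771. The GTPase genes Rac2 and Rhoh were at 1.08 and 0.918, and at 1.16 and 0.856. Within ribosome-rich cells alone the median ribosomal share still differed, at 27.9% in the PPARg-low and 37.9% in the PPARg-negative library. In single bins of ribosomal share from 20 to 40%, the Crip1 ratio was below 1 throughout, from 0.744 to 0.976. Actg1 ran from 0.920 to 1.09, Wdr1 from 0.915 to 1.18 and Arpc5 from 0.771 to 1.07. Rac2 ran from 0.853 to 1.05 and Rhoh from 0.889 to 1.17. Of the 6, only Actg1 had an interval above 1 in any of these bins, between 25 and 30%. The part of ribosomal share in the ratios of ribosome-rich cells was not tested. Of the 6, Actg1 alone kept its interval above 1 in ribosome-rich cells under all 3 scalings, while all 6 kept it below 1 in ribosome-poor cells. Rac2 turned to 0.946 and 0.920 in ribosome-rich cells, with intervals below 1, in the other 2 scalings, and so was below 1 in both kinds of cells there.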

How the results depend on the processing

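The stratified values moved least. Over 14 alternatives the median of the members stayed between 0.912 and 0.959 and the number below 1 between 18 and 21, while 0 members were called higher under each; 6 members above 1 became 3 with at most 5% mitochondrial UMIs, and 1 member called lower became 2 with 500 genes per cell. No value changed from called higher to called lower or back. Scaled without ribosomal protein, mitochondrial and Malat1 UMIs, the pooled median was 0.961 with 13 members above and 22 below 1, ribosome-rich cells gave 2 higher, 2 lower and 13 above 1, ribosome-poor cells gave 1 above 1, and ribosome-poor over ribosome-rich cells gave 12 lower and a median of 0.867 (PPARg-low) and 7 higher, 10 lower and 0.979 (PPARg-negative). Relative to the median gene, the pooled values were 2 higher, 4 lower, 9 above and 22 below 1 with a median of 0.926, and those of ribosome-rich cells 2 higher, 2 lower, 11 above and 15 below 1. With every cell weighted equally, ribosome-rich cells gave 3 higher and 2 lower. Split at 15%, ribosome-rich cells gave 2 lower and ribosome-poor cells 1 lower and 4 above 1, and split at 25%, 3 higher in the first and 1 lower in the second. In ribosome-poor cells, 7 members were above 1 without a mitochondrial filter, 1 with at most 5% and 1 with 500 genes per cell. With at most 5% mitochondrial UMIs, ribosome-poor over ribosome-rich cells gave 2 lower in each library and medians of 1.19 (PPARg-low) and 1.66 (PPARg-negative). At 1000 UMIs per cell the Klrg1 split gave 0 higher and 2 lower (PPARg-low, ribosome-rich), 0 higher and 5 lower (PPARg-low, ribosome-poor) and 1 higher (PPARg-negative, ribosome-poor). Over all settings, 205 of 247 counts and medians, and 704 of 855 ratios of single genes, stayed close to the reported value (counts within 1.5 times, ratios within their own counting interval, medians within that of the member nearest to the median). The cause of these shifts was not tested. Bins that cross ribosomal share with depth, bins of at least 50 cells, the set without 15 to 20%, and bins of 2 points with the other scaling were chosen after seeing the data. No paired analysis was possible because each group is 1 library and no mouse is told apart. With 1 library per group, a difference between groups and one between captures cannot be told apart.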
